A study of Mus musculus with 12 samples.

Results

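Selp, Selplg, Pecam1, Cd44 and Cxcr4 are 5 genes of leukocyte adhesion and homing, taken by symbol from an expression table of 23234 genes. All 5 passed a minimum mean of 1 FPKM (fragments counted per length of transcript and per size of the library) over the 12 libraries and so were among the 10305 genes tested. The cells were primary acute myeloid leukaemia cells of the mouse, with the genotype given as NRASG12V/Mll-AF9 and the strain as (FVB/n X C57/BL/6J) F1. They were cultured for 24 h in 1 of 4 groups of 3 libraries: DMSO, the solvent alone, PD325901 at 20 µM, RAD001 at 26 µM, and GDC0941 at 20 µM. PD325901 inhibits the kinases MEK1 and MEK2 of the RAS to ERK cascade. RAD001, also called everolimus, is an inhibitor of mTOR in its raptor-containing complex. GDC0941 blocks PI3 kinases of class I. All 4 groups, DMSO included, carried both oncogenes and were grown in RPMI medium with 10% FBS and 1 ng/ml of the cytokine GM-CSF, so no group is free of activated NRAS. The labels do not say how many animals or leukaemias gave the cells, what drives the NRAS transgene, or whether replicates were separate cultures, and p-values here measure only the spread between these libraries, which may be technical.

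Blood cells leave the vessel in steps. Selectins, which are lectins on cells of the blood and vessel wall, catch sugars on mucin proteins and let cells roll. Chemokine receptors then signal to integrins, and junctional molecules guide the cell through the endothelium. Selp encodes P-selectin, best known from the granules of platelets and endothelial cells. Selplg encodes PSGL-1, the mucin on myeloid cells that P-selectin binds and that also serves the other selectins. Pecam1 encodes CD31, an adhesion molecule of endothelial junctions, platelets and leukocytes that carries inhibitory signalling motifs in its tail. Cd44 encodes the main hyaluronan receptor, which can also carry selectin-binding sugars and which leukaemic stem cells use to lodge in the marrow. Cxcr4 encodes the receptor for the chemokine CXCL12, which retains blood progenitors and leukaemia cells in the marrow.

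The sequences upstream of the start sites of Selp, the gene of the 5 that moved most, and Cxcr4, which moved the other way with PD325901, are shown so that the reader can compare their letters. They are the 250 bases before the RefSeq start on GRCm38.p6, at chr1:164115014-164115263 on the plus strand for Selp and chr1:128592300-128592549 on the minus strand for Cxcr4. The expression values were made on mm9 and carry no positions. Capitals mark TGANTCA (the letters of an AP-1 site), GGGCGG (the SP1 box) and TATAAA (the TATA box), searched on both strands.
Selp: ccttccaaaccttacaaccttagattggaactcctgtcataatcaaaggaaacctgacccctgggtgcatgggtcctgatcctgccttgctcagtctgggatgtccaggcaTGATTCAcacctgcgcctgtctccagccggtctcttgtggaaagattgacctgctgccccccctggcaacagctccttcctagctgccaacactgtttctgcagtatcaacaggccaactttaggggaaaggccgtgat
Cxcr4: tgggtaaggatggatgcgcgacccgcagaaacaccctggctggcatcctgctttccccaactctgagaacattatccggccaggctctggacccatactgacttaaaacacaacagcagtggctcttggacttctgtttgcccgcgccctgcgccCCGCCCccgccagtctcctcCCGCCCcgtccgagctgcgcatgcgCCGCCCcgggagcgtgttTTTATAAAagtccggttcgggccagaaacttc
The Selp window held 1 TGANTCA match, which begins 139 bases before the start, and no GGGCGG or TATAAA. The Cxcr4 window held 3 GGGCGG matches and TATAAA on both strands, in overlapping positions that begin 32 and 30 bases before the start, and no TGANTCA. Of the 32536 RefSeq windows of this length, 6.73% held TGANTCA, 33.0% GGGCGG and 12.3% TATAAA. The corresponding Cd44 window held none of the 3. Short patterns of ETS, GATA, FOXO and KLF sites were searched as well and are not in capitals. The ETS pattern had 2 matches for Selp, 4 for Cd44 and none for Cxcr4. The GATA pattern had 1 match for Cxcr4, 1 for Cd44 and none for Selp. FOXO and KLF patterns had no match for these genes. Of all windows, 64.1% held the ETS pattern, 22.5% GATA, 3.17% FOXO and 28.1% KLF. These are descriptions of letters, and no binding was measured.

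The libraries held 462335 to 587581 FPKM in total, and libraries of 1 group had Spearman correlations over genes of 0.966 to 0.996, against 0.875 to 0.965 for libraries of different groups. Absolute depth was unknown since no read counts were used. Relative depth, read from the most common ratio between low values, was 0.847 to 1.21 of that of DMSO replicate 1. Myeloid identity was visible in the levels of Itgam, Csf2rb and Csf1r, the most abundant of the myeloid markers by their mean over all 12 libraries, at 336 ± 6.02, 130 ± 11.1 and 152 ± 7.24 FPKM with DMSO (mean ± SD, n = 3). Itgam was at 228, 811 and 537 FPKM with PD325901, RAD001 and GDC0941. The list summed to 1201 to 1214 FPKM with DMSO and 1365 to 1390 with PD325901. With RAD001 it was 2236 to 2294 and with GDC0941 1387 to 1574. Of its 15 tested genes, 6 rose and 2 fell with PD325901 (18.4% and 28.2% of all genes did). With RAD001 6 rose and 4 fell (15.4% and 15.9%), and with GDC0941 5 and 4 (11.6% and 12.7%). The falls with RAD001 and with GDC0941 were Elane, Mpo, Prtn3 and Ctsg. The lysozyme gene Lyz2 was listed at 0 in all 12 libraries, which the values cannot tell apart from a failed estimate. Of the endothelial markers 11 of 13 and of the megakaryocyte and platelet markers 9 of 11 had a mean below 1 FPKM. The T and NK cell, B cell, erythroid and stromal lists summed to at most 9.97, 8.13, 3.49 and 1.98 FPKM in any library, and the mast cell and basophil list to 1.71 to 146 FPKM. DMSO replicate 1 stood apart for the mast cell protease Cpa3, at 139 FPKM against 16.9 and 14.9 in the other two. In such bulk samples, fewer cells of a type and less RNA per cell cannot be told apart.

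Selp had the widest range of the 5 genes. Its level was 6.31, 6.84 and 9.15 FPKM in the DMSO libraries and 0.792, 1.70 and 1.54 FPKM with PD325901. It was 58.6, 44.5 and 41.6 FPKM with RAD001 and 47.8, 69.6 and 61.1 FPKM with GDC0941. PD325901 lay below DMSO without overlap, and both other inhibitors lay far above it. Selp fell with PD325901 (change of -1.86 ± 0.20 on the log2(FPKM + 1) scale, which understates changes of low genes; ± SE; adjusted p = 3.60e-05, limma with Benjamini-Hochberg adjustment over all genes tested). In mean FPKM that was 5.53-fold lower. It rose 6.49-fold with RAD001 (log2 change 2.54 ± 0.20, adjusted p = 1.63e-05) and 8.01-fold with GDC0941 (2.84 ± 0.20, adjusted p = 1.55e-05), by limma. By log2 change it was the 8th highest rise with GDC0941 and the 24th with RAD001 among the 10305 genes.

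The contrast between the inhibitors was wider still. Mean Selp was 44.3-fold lower with PD325901 than with GDC0941 and 35.9-fold lower than with RAD001 (log2 differences -4.70 ± 0.20 and -4.40 ± 0.20, adjusted p = 5.71e-08 and 4.57e-08 by limma). RAD001 and GDC0941 overlapped and their difference did not pass (GDC0941 minus RAD001, 0.30 ± 0.20, 95% interval -0.14 to 0.73, adjusted p = 0.320). Without the replicate 1 library of every group it passed, with GDC0941 higher (0.59, adjusted p = 0.00658), as it did with library weights (0.53, adjusted p = 0.0387). The order of levels was PD325901, DMSO, then RAD001 and GDC0941 as neighbours that did not differ beyond their spread. Among all genes tested Selp stood at the 5.09th percentile of level with PD325901, the 37.2nd with DMSO, the 84.2nd with RAD001 and the 87.5th with GDC0941. With 5 FPKM in place of 1 added to each value, the PD325901 fall was -0.97.

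**Figure D1:**
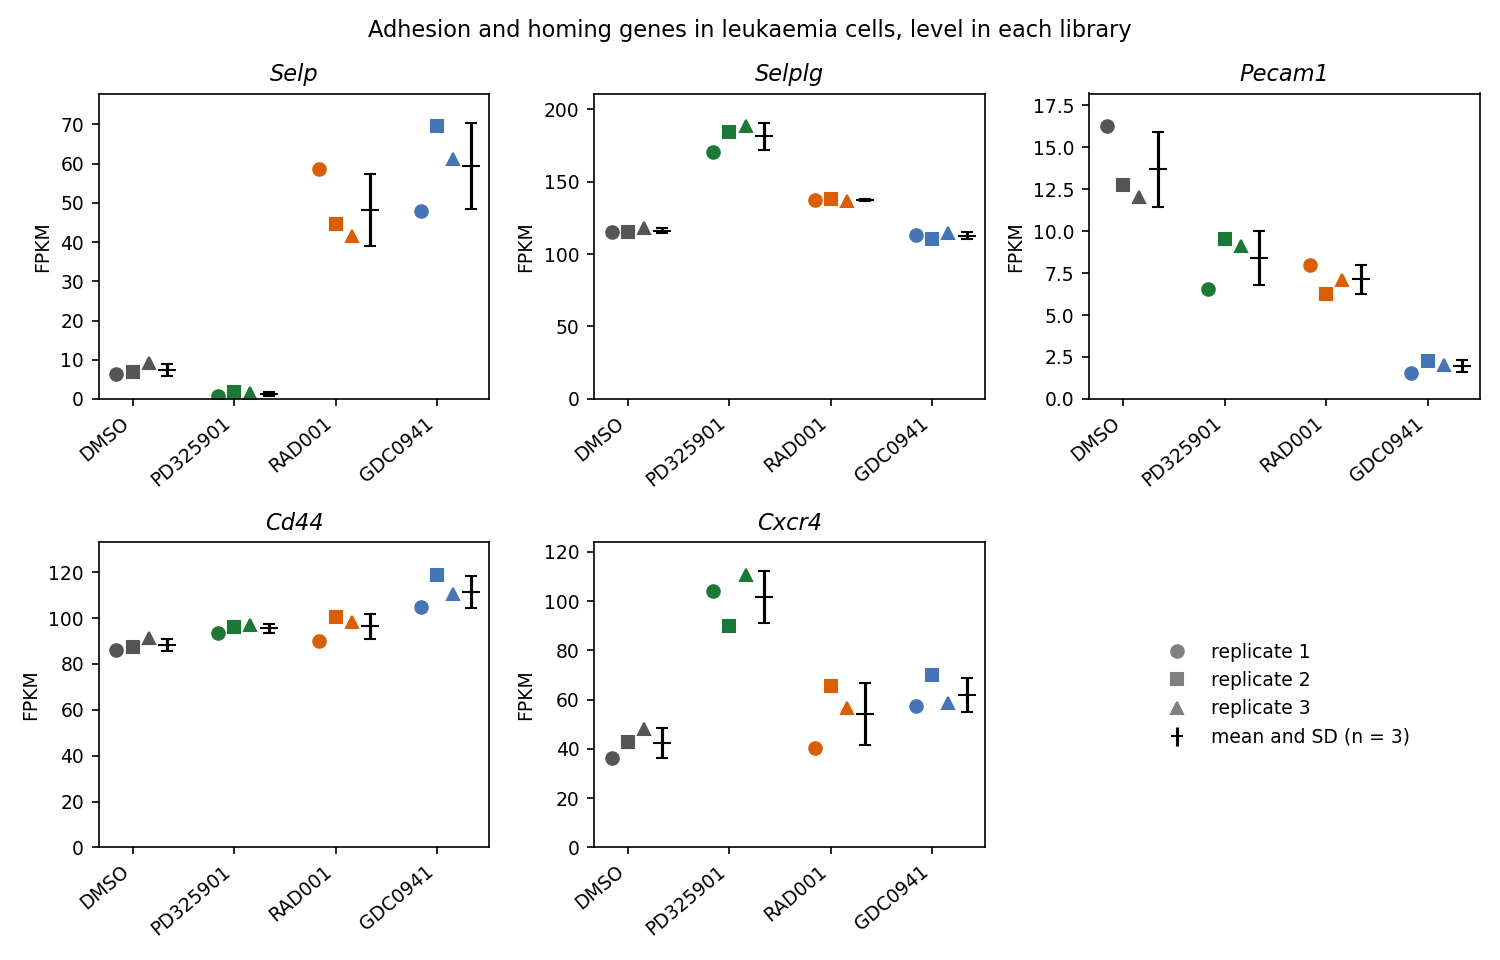
FPKM of each gene (vertical axes, linear from 0) in the 3 libraries of each group, with the mean and SD beside the points. Selp is under 2 FPKM in the PD325901 libraries and above 41 in every RAD001 and GDC0941 library, whereas Cd44 stays between 85.9 and 119 FPKM throughout.

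RefSeq places a non-coding gene, Gm16548, across part of Selp, and whether reads were counted by strand is not given in the sources used here. Its level stayed between 0 and 1.55 FPKM in all 12 libraries. Markers of the cells best known for P-selectin were also summed. The megakaryocyte and platelet list summed to 80.9 to 141 FPKM with DMSO, 13.8 to 39.4 with PD325901, 217 to 284 with RAD001 and 6.90 to 12.4 with GDC0941. Most of that sum outside the GDC0941 group was Pf4, the platelet factor 4 chemokine, at 96.6 ± 31.0, 18.5 ± 13.8, 241 ± 32.7 and 4.08 ± 0.590 FPKM in the same order. The list thus moved with Selp for PD325901 and RAD001 and against it for GDC0941. The endothelial list summed to 7.05 to 9.72 FPKM with DMSO, 10.6 to 12.3 with PD325901, 4.87 to 5.61 with RAD001 and 3.75 to 5.88 with GDC0941, and was highest where Selp was lowest. The endothelial marker Emcn was listed at 0 in all 12 libraries, which as for Lyz2 may be a failed estimate. Of the 13 endothelial markers, 2 had a mean of at least 1 FPKM over all libraries. The part of these markers in the Selp values was not tested.

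Selplg, which encodes the P-selectin ligand, was abundant and steady between replicates. It stood at 115, 115 and 118 FPKM with DMSO, 171, 184 and 188 with PD325901, 138, 138 and 137 with RAD001, and 113, 110 and 115 with GDC0941. Only GDC0941 was not above DMSO. Selplg rose 1.56-fold with PD325901 (log2 change 0.64 ± 0.06, adjusted p = 1.94e-05, limma) and 1.19-fold with RAD001 (0.24 ± 0.06, adjusted p = 0.0118). With GDC0941 the change was -0.04 ± 0.06 (95% interval -0.18 to 0.10, adjusted p = 0.679). The RAD001 rise was lost after quantile normalization (0.088, adjusted p = 0.420).

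PD325901 exceeded both other inhibitors for Selplg, by 0.39 ± 0.06 over RAD001 and 0.68 ± 0.06 over GDC0941 (adjusted p = 0.000310 and 6.52e-06, limma). After quantile normalization the difference from RAD001 was 0.60. GDC0941 was lower than RAD001 by a log2 difference of -0.28 ± 0.06 (adjusted p = 0.0106), which did not pass after quantile normalization or in a fit of those 2 groups alone (-0.20, and adjusted p = 0.0739). The order was therefore GDC0941 and DMSO, which did not differ beyond their spread, then RAD001, then PD325901. The receptor and its ligand moved in opposite directions with PD325901. Mean Selplg was 15.6 times mean Selp with DMSO, 135 times with PD325901, 2.85 times with RAD001 and 1.90 times with GDC0941, in FPKM, which is per length.

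Pecam1 was lower than DMSO with all 3 inhibitors and lowest with GDC0941. Its level was 16.2, 12.7 and 12.1 FPKM with DMSO, 6.56, 9.51 and 9.13 with PD325901, 8.003, 6.27 and 7.09 with RAD001, and 1.57, 2.25 and 2.03 with GDC0941. No inhibitor library reached the lowest DMSO library. Pecam1 fell 7.01-fold with GDC0941 in mean FPKM (log2 change -2.31 ± 0.15, adjusted p = 1.55e-05), 1.92-fold with RAD001 (-0.85 ± 0.15, adjusted p = 0.00203) and 1.63-fold with PD325901 (-0.65 ± 0.15, adjusted p = 0.00535), by limma. With GDC0941 it was the 39th largest log2 fall of all genes tested.

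The GDC0941 libraries were below the others for Pecam1, by -1.46 ± 0.15 against RAD001 (adjusted p = 0.000149, limma), and PD325901 was above GDC0941 by 1.66 ± 0.15 (adjusted p = 7.36e-06). PD325901 and RAD001 overlapped (0.20 ± 0.15, 95% interval -0.14 to 0.54, adjusted p = 0.302). PD325901 was higher than RAD001 without the replicate 1 library of every group (0.43, adjusted p = 0.00361) and with library weights (0.42, adjusted p = 0.000654). Without those replicate 1 libraries the fall with PD325901 was -0.38 (adjusted p = 0.00758). With 5 FPKM added, the fall with GDC0941 was -1.42, its difference from RAD001 -0.80 and that of PD325901 from GDC0941 0.94. The summed endothelial markers given above were higher with PD325901 than with DMSO and lower with the other inhibitors. The megakaryocyte and platelet sums were lower than with DMSO with PD325901 and GDC0941, as Pecam1 was, and higher with RAD001, where Pecam1 was lower. The part of both lists in the Pecam1 values was not tested.

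Cd44 was the least variable of the 5. Its level was 85.9, 87.5 and 91.1 FPKM with DMSO, 93.3, 96.2 and 97.2 with PD325901, 90.1, 101 and 98.4 with RAD001, and 105, 119 and 110 with GDC0941. The GDC0941 libraries lay above all others, by small margins. Cd44 rose 1.26-fold with GDC0941 (log2 change 0.33 ± 0.07, adjusted p = 0.00649, limma), a call that ended after quantile normalization (0.26, adjusted p = 0.0627). The changes with PD325901 (0.12 ± 0.07, 95% interval -0.04 to 0.27, adjusted p = 0.205) and RAD001 (0.13 ± 0.07, -0.03 to 0.28, adjusted p = 0.201) did not pass. Both passed with library weights (0.11 and 0.16, adjusted p = 0.0389 and 0.00300), and after quantile normalization that of RAD001 was -0.0058.

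Between inhibitors, Cd44 was lower with PD325901 than with GDC0941 (-0.22 ± 0.07, adjusted p = 0.0242, limma). That call ended with median-ratio scaling (-0.13, adjusted p = 0.215), quantile normalization (-0.093, adjusted p = 0.436) and a fit of the 2 groups alone (adjusted p = 0.0755). It also ended without GDC0941 replicate 2 (-0.17, adjusted p = 0.0840) or without PD325901 replicate 1, 2 or 3 (-0.20, -0.22 and -0.23, adjusted p = 0.0646, 0.0550 and 0.0507). The difference of GDC0941 from RAD001 was 0.21 ± 0.07 (adjusted p = 0.0667) and that of PD325901 from RAD001 -0.01 ± 0.07 (adjusted p = 0.919). The former passed without GDC0941 replicate 1 (0.25, adjusted p = 0.0468). The values are per gene, so the variant exons for which Cd44 is known cannot be told apart.

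Cxcr4 was highest with PD325901. It stood at 36.2, 42.7 and 48.1 FPKM with DMSO, 104, 89.9 and 111 with PD325901, 40.3, 65.4 and 56.7 with RAD001, and 57.2, 69.8 and 58.7 with GDC0941. The lowest PD325901 library was above every library of the other groups, while RAD001 overlapped DMSO and GDC0941. Cxcr4 rose 2.40-fold with PD325901 (log2 change 1.25 ± 0.17, adjusted p = 0.000163, limma) and 1.46-fold with GDC0941 (0.54 ± 0.17, adjusted p = 0.0366). The change with RAD001 was 0.33 ± 0.17 (95% interval -0.04 to 0.70, adjusted p = 0.159).

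PD325901 was above RAD001 by 0.92 ± 0.17 and above GDC0941 by 0.70 ± 0.17 for Cxcr4 (adjusted p = 0.000879 and 0.00443, limma), and GDC0941 minus RAD001 was 0.21 ± 0.17 (95% interval -0.15 to 0.58, adjusted p = 0.399). The order of levels was DMSO, RAD001, GDC0941 and PD325901, in which only the last step separated neighbours beyond their spread. The GDC0941 rise ended without DMSO replicate 1 or 2 (0.44 and 0.55, adjusted p = 0.123 and 0.0852) and without GDC0941 replicate 2 or 3 (0.45 and 0.58, adjusted p = 0.122 and 0.0679). It also ended with no filter and after quantile normalization (adjusted p = 0.0594 and 0.0526). With RAD001, by contrast, Cxcr4 passed without RAD001 replicate 1 (0.52, adjusted p = 0.0164), without replicate 1 of every group (0.42, adjusted p = 0.0225) and with library weights (0.46, adjusted p = 0.00101).

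**Figure D2:**
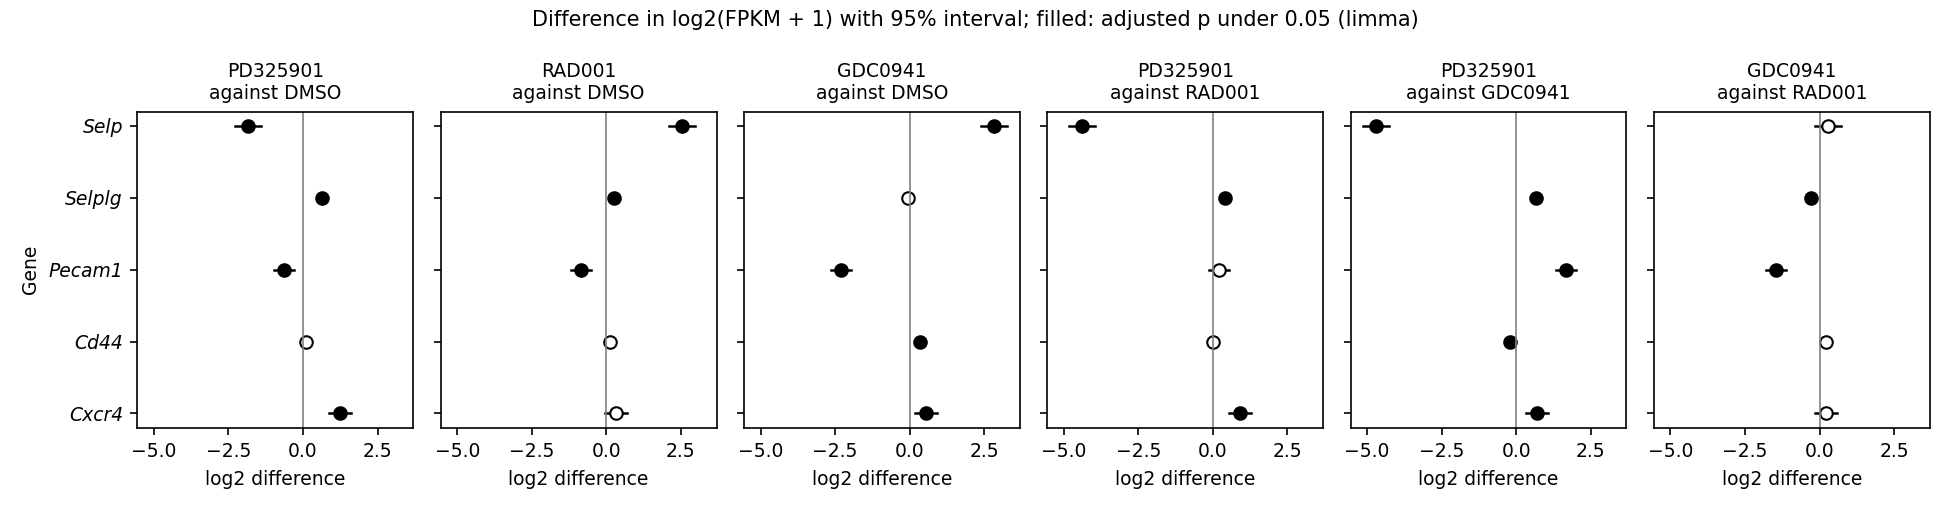
Difference in log2(FPKM + 1) between groups (horizontal axes) for each gene (rows) in the 6 comparisons, with the 95% interval as a line and a filled point where the adjusted p from limma was under 0.05. Selp is on opposite sides of 0 for PD325901 and for the other inhibitors against DMSO, and Pecam1 is to the left of 0 for all 3.

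Set side by side, the 5 genes did not share a direction. With PD325901, 4 of 5 changed, where 46.6% of all genes tested changed. Selplg and Cxcr4 rose (18.4% of all genes did) and Selp and Pecam1 fell (28.2%). With RAD001, 3 of 5 changed, against 31.3% of all genes, Selp and Selplg upward (15.4%) and Pecam1 downward (15.9%). With GDC0941, 4 of 5 changed, against 24.3%. Selp, Cd44 and Cxcr4 rose (11.6%) and Pecam1 fell (12.7%). These 3 comparisons share the DMSO libraries. Between PD325901 and GDC0941 all 5 differed, where 51.5% of genes did, with 3 higher (20.9%) and 2 lower (30.7%) with PD325901. Between PD325901 and RAD001 3 differed, against 50.2%, with 2 higher (20.8%) and 1 lower (29.4%) with PD325901. Between GDC0941 and RAD001 2 differed, against 17.4%, both lower with GDC0941 (9.35%) and none higher by limma (8.09%). At an unadjusted p under 0.05, 1 of the 5 (Cd44) was higher there, against 17.2% of all genes. With so few genes these counts are read as descriptions. The median log2 change of the 5 was 0.12, 0.24 and 0.33 with PD325901, RAD001 and GDC0941, against -0.06, 0.00 and 0.02 over all genes. The span between the highest and lowest group mean was 44.3-fold for Selp, 7.01-fold for Pecam1, 2.40-fold for Cxcr4, 1.61-fold for Selplg and 1.26-fold for Cd44.

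The genes F5 and Slc19a2 follow Selp in RefSeq's gene order, and they were looked at after the values of Selp were seen. F5, the coagulation factor V gene, was 1.52 ± 0.527 FPKM with DMSO, 0.999 ± 0.145 with PD325901, 6.41 ± 1.73 with RAD001 and 3.12 ± 0.611 with GDC0941. It rose with RAD001 (1.55 ± 0.19, adjusted p = 0.000201) and GDC0941 (0.72 ± 0.19, adjusted p = 0.0168), and its change with PD325901 did not pass (-0.32 ± 0.19, adjusted p = 0.186). The GDC0941 call for F5 ended without DMSO replicate 2 or 3 or GDC0941 replicate 2 (adjusted p = 0.0706, 0.0641 and 0.0638). With 5 FPKM added, the F5 changes were 0.80 with RAD001 and 0.32 with GDC0941. Sele, the endothelial selectin gene, stayed at or below 0.123 FPKM in every library, and Slc19a2 was 4.21 ± 0.246, 2.34 ± 0.152, 4.96 ± 0.997 and 4.45 ± 0.482 FPKM with DMSO, PD325901, RAD001 and GDC0941.

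**Figure D3:**
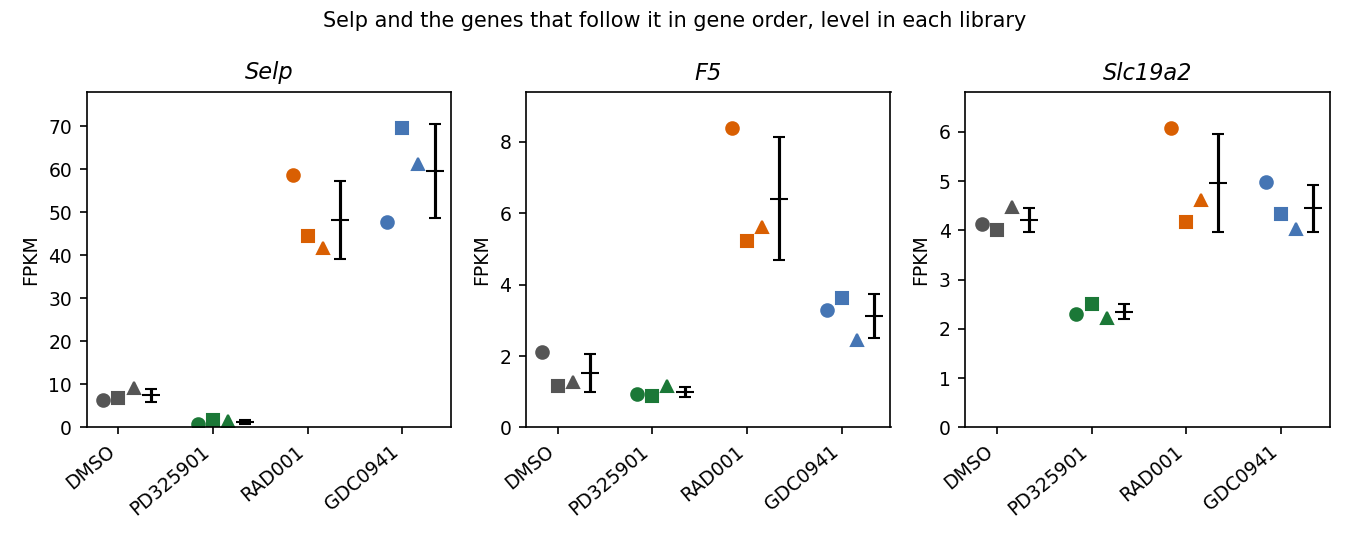
FPKM (vertical axes, linear from 0) of Selp, F5 and Slc19a2 in each library of the 4 groups, with the mean and SD beside the points. With PD325901 all 3 genes lie below their DMSO libraries, F5 by the narrowest margin. Selp and F5 are above DMSO with RAD001 and GDC0941, and Slc19a2 overlaps DMSO for both of the latter.

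The genes around these 5 come from lists of their pathways. A gene is named below for the inhibitors with which it was among the 3 of its list with the smallest adjusted p, and it may have changed with the others too. The direction with another inhibitor is added for 6 genes and for Gmds, St3gal6 and B4galt5, chosen after their values were seen. Of the mucins that can carry selectin ligands, the leukocyte mucin Spn (CD43) fell with RAD001 and GDC0941 (-0.85 ± 0.12 and -0.996 ± 0.12). The sialomucin Cd34 fell with all 3 inhibitors (-2.39 ± 0.40 with PD325901, -1.70 ± 0.40 with RAD001 and -2.31 ± 0.40 with GDC0941). Cd24a, which can bind P-selectin, rose with PD325901 and RAD001 (0.54 ± 0.12 and 0.77 ± 0.12) and fell with GDC0941 (-0.56 ± 0.12).

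The binding of PSGL-1 to selectins depends on sugars that are made on it, and for P-selectin also on sulfated tyrosines. Of 22 genes for making the sugars and sulfated tyrosines 21 were tested. With PD325901 1 rose and 7 fell (18.4% and 28.2% of all genes did), with RAD001 6 rose and 3 fell (15.4% and 15.9%), and with GDC0941 2 rose and 2 fell (11.6% and 12.7%), at medians of -0.16, 0.06 and 0.10. Gcnt1, the enzyme that starts the core 2 branch, was 14.7 ± 1.19 FPKM with DMSO and 65.6 ± 1.33 with RAD001 (log2 change 2.09 ± 0.15, adjusted p = 9.00e-06, limma). It fell with PD325901 (-0.45 ± 0.15, adjusted p = 0.0278), a call that ended without DMSO replicate 1 or 2 or PD325901 replicate 1 or 2 (adjusted p = 0.0551 to 0.0913), and was at 0.15 ± 0.15 with GDC0941 (adjusted p = 0.499). Fut7, a fucosyltransferase that can complete the ligand, fell with RAD001 and GDC0941 (-0.72 ± 0.13 and -0.67 ± 0.13) and was at 0.28 ± 0.13 with PD325901 (adjusted p = 0.0944). Fut4, another fucosyltransferase of the list, rose with RAD001, from 2.41 to 3.75 FPKM (0.49 ± 0.15, adjusted p = 0.0269, limma). It did not pass with PD325901 or GDC0941 (0.15 ± 0.15 and 0.13 ± 0.15, adjusted p = 0.440 and 0.574). The PD325901 value of Fut7 passed after quantile normalization (0.41, adjusted p = 0.0307), with library weights (0.38, 0.000670), without PD325901 replicate 1 (0.38, 0.0384) and without replicate 1 of every group (0.42, 0.00886). The sialyltransferase St3gal6 went from 3.17 ± 1.22 FPKM with DMSO to 0.135 ± 0.0494 with PD325901 and 15.1 ± 2.69 with GDC0941 (-1.83 ± 0.21 and 1.98 ± 0.21), a fall and a rise by limma. With 5 FPKM added these were -0.66 and 1.30, and the falls of Fut7 were -0.39 and -0.36. Its sister enzyme St3gal4 rose with PD325901 (0.79 ± 0.12) and RAD001 (0.40 ± 0.12, adjusted p = 0.0278) and was at -0.20 ± 0.12 with GDC0941 (adjusted p = 0.249). The RAD001 call for St3gal4 ended with only the 2 groups fitted (adjusted p = 0.0580), without DMSO replicate 2 or 3 (0.0595 and 0.101) and without RAD001 replicate 1 (0.26, adjusted p = 0.0777). The galactosyltransferase B4galt5 rose with RAD001 (0.99 ± 0.19). Gmds, of GDP-fucose synthesis, fell with PD325901 (-1.46 ± 0.13), as did the sulfate donor synthase Papss2 (-1.30 ± 0.18). Gmds also fell with GDC0941 (-0.40 ± 0.13, adjusted p = 0.0375), a call that ended without a filter (adjusted p = 0.0585), with only the 2 groups fitted (0.101) and without DMSO or GDC0941 replicate 2 or 3 (0.109 to 0.129). With RAD001, Gmds fell and St3gal6 rose as well (-0.46 ± 0.13 and 0.73 ± 0.21, adjusted p = 0.0177 and 0.0220, limma). B4galt5 also rose with GDC0941 (0.58 ± 0.19, adjusted p = 0.0420). How these added calls and that of Fut4 depend on the processing was not examined.

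**Figure D4:**
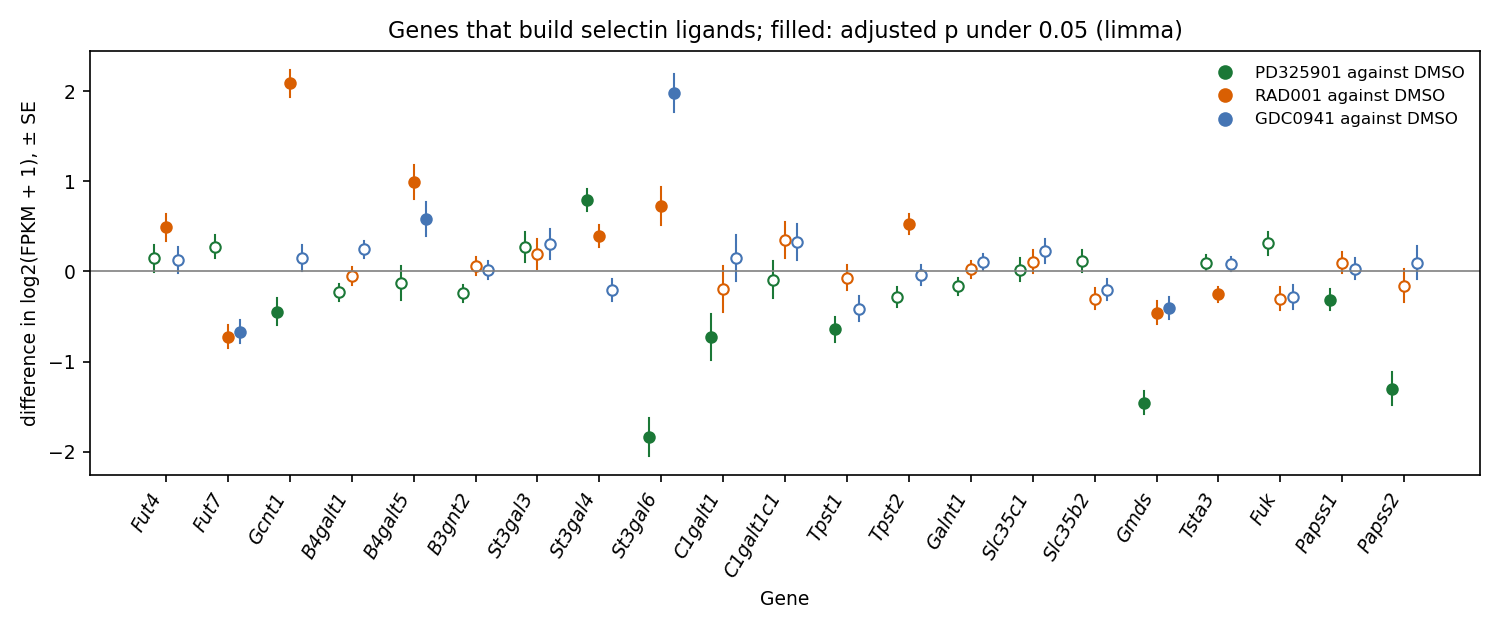
Log2 change with its SE (vertical axis, log2(FPKM + 1) scale) of the 21 tested genes that build selectin ligands (horizontal axis), for each inhibitor against DMSO, filled where the adjusted p from limma was under 0.05. St3gal6 is low with PD325901 and high with GDC0941, and Gcnt1 is the highest point with RAD001.

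Around Cxcr4, 21 of 24 listed symbols were tested, and Cxcr7 and Ackr3 among the 24 name the same gene. With PD325901 8 rose and 5 fell (18.4% and 28.2% of all genes did), with RAD001 7 rose and 3 fell (15.4% and 15.9%), and with GDC0941 1 rose and 6 fell (11.6% and 12.7%). The medians were 0.05, 0.20 and -0.09, against -0.06, 0.00 and 0.02 over all genes. The ligand gene Cxcl12 stayed at or below 0.250 FPKM in every library. Mif, an alternative CXCR4 ligand, fell with all 3 inhibitors (-1.91 ± 0.33, -1.51 ± 0.33 and -1.34 ± 0.33), and Cd74, its other receptor, fell with GDC0941 (-1.28 ± 0.22). The signal-damping gene Rgs1 fell with PD325901 (-3.24 ± 0.56) and Rgs19 rose with PD325901 and RAD001 (0.35 ± 0.07 and 0.30 ± 0.07). The focal adhesion kinase relative Ptk2b rose with RAD001 (0.95 ± 0.21). With GDC0941, Rac2, a GTPase of leukocyte migration, and Dpp4, a protease that cuts CXCL12, fell (-0.47 ± 0.09 and -0.63 ± 0.14), whereas with PD325901 both rose (0.46 ± 0.09 and 0.44 ± 0.14). With 5 FPKM added, Dpp4 was at -0.23 with GDC0941 and 0.19 with PD325901. The PD325901 call for Dpp4 ended without DMSO replicate 2 or 3 or PD325901 replicate 2 or 3 (adjusted p = 0.116, 0.0761, 0.0900 and 0.0843), and the GDC0941 call for Mif without GDC0941 replicate 2 (-1.04, adjusted p = 0.0520).

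Of the CD44 partners 15 of 23 were tested. With PD325901 1 rose and 4 fell (18.4% and 28.2% of all genes did), with RAD001 3 rose and 2 fell (15.4% and 15.9%), and with GDC0941 1 rose and 4 fell (11.6% and 12.7%), at medians of -0.16, 0.21 and -0.18. Spp1, or osteopontin, a CD44 ligand, fell with PD325901 (-4.86 ± 0.69). Its DMSO libraries differed widely (3454 ± 3286 FPKM, against 95.3 ± 47.4 with PD325901), and all PD325901 libraries lay below them. The hyaluronan-binding Hmmr, also a mitosis gene, fell with all 3 inhibitors (-0.999 ± 0.22, -1.51 ± 0.22 and -1.35 ± 0.22). The hyaluronidase Hyal1 fell with RAD001 and GDC0941 (-1.74 ± 0.28 and -1.26 ± 0.28). With 5 FPKM added, the falls of Hmmr were -0.50, -0.70 and -0.63 and those of Hyal1 -0.65 and -0.50. Msn, or moesin, which links CD44 and PSGL-1 to actin, rose with RAD001 and GDC0941 (0.57 ± 0.09 and 0.42 ± 0.09), the former being 0.37 after quantile normalization. With PD325901 Msn was at -0.23 ± 0.09 (adjusted p = 0.0689) and passed with library weights and with only the 2 groups fitted (adjusted p = 0.00914 and 0.0309). Its relative Ezr was at -0.08, 0.25 and -0.23 (adjusted p = 0.756, 0.349 and 0.435), the last of which passed without replicate 1 of every group (adjusted p = 0.0153). The protease Adam10, which can shed CD44, rose with PD325901 (0.41 ± 0.09).

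Of the genes of CD31 signalling and transmigration 16 of 20 were tested. With PD325901 4 rose and 3 fell (18.4% and 28.2% of all genes did), with RAD001 1 rose and 2 fell (15.4% and 15.9%), and with GDC0941 2 rose and 7 fell (11.6% and 12.7%), at medians of 0.04, 0.08 and -0.19. Ptpn6, the SHP-1 phosphatase that docks on the CD31 tail, fell with GDC0941 (-0.37 ± 0.06) and was at 0.15 ± 0.06 with PD325901 and -0.13 ± 0.06 with RAD001 (adjusted p = 0.0777 and 0.151). The PD325901 value of Ptpn6 passed without a filter, with median-ratio scaling and with library weights (adjusted p = 0.0489, 0.00748 and 0.00296), and the RAD001 value after quantile normalization (-0.33, adjusted p = 0.00248). Its relative Ptpn11, or SHP-2, was at -0.06, 0.09 and 0.05 (adjusted p = 0.581, 0.443 and 0.740). Cd38, named as a CD31 ligand, fell with PD325901 (-0.76 ± 0.20, adjusted p = 0.00904, or 0.0525 after quantile normalization), and was at 0.45 ± 0.20 with RAD001 and -0.15 ± 0.20 with GDC0941 (adjusted p = 0.109 and 0.633). The RAD001 value of Cd38 passed after quantile normalization (0.64, adjusted p = 0.0254), with library weights (0.42, 0.000880) and without replicate 1 of every group (0.38, 0.0174). The junctional F11r rose with PD325901 (1.06 ± 0.14) and fell with GDC0941 (-0.65 ± 0.14), the kinase Fyn fell with PD325901 and RAD001 (-0.62 ± 0.11 and -0.65 ± 0.11), and Cd99l2 fell with RAD001 (-1.24 ± 0.19). With 5 FPKM added, Cd38 was at -0.24, F11r at 0.52 with PD325901 and -0.23 with GDC0941, and Cd99l2 at -0.65. Cd47 fell with GDC0941 (-0.82 ± 0.16). Its receptor Sirpa rose with PD325901 and GDC0941 (0.39 ± 0.07 and 0.49 ± 0.07), the former being 0.59 after quantile normalization. The kinase Lyn rose with RAD001 (0.34 ± 0.08, adjusted p = 0.00818), or 0.19 after quantile normalization (adjusted p = 0.163).

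Genes with the most similar pattern were found by the smallest root-mean-square difference over the 12 libraries of log2(FPKM + 1) centred on each gene's mean. For Selp, whose own spread by that measure was 1.94, they were A430084P05Rik (difference 0.34), Tm7sf4 (0.41), a gene of macrophage fusion, and the chemokine Ccl6 (0.44). For Pecam1, with a spread of 0.86, Haao (0.34), Hsh2d (0.37) and Tnfsf8 (0.38) came nearest. For Cxcr4, with a spread of 0.49, they were the interleukin 6 receptor gene Il6ra (0.13), Pnpla7 (0.14) and Rgag4 (0.16). Mean Il6ra was 15.99, 41.5, 22.1 and 22.9 FPKM with DMSO, PD325901, RAD001 and GDC0941. For Selplg they were Atxn1 (0.067), the actin regulator Coro1b (0.075) and Bckdha (0.093), and for Cd44 Zfp12 (0.054), E330020D12Rik (0.062) and Zfp846 (0.064), where the spreads of Selplg and Cd44 were only 0.27 and 0.13. By group mean Atxn1 was at 1.61 to 3.01 FPKM and the genes nearest to Cd44 at 0.840 to 2.73 FPKM. Adding 1 FPKM understates changes at such levels, so their fold changes need not match those of Selplg and Cd44.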

How the data were processed

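RNA of 12 libraries was sequenced, 3 in each of 4 groups given by the sample titles. The deposited file holds FPKM for each gene symbol. TopHat2 2.0.4, Cuffdiff and the mm9 build are named in the submitters' processing notes. No source used here gives the annotation, the version of Cuffdiff or how libraries were scaled to each other. From these values log2(FPKM + 1) was computed for the 10305 genes whose mean over the libraries reached 1 FPKM. A single limma 3.58.1 model (R 4.3.3) held 4 group means over the 12 libraries, leaving 8 residual degrees of freedom, with eBayes and a trend. Tests were two-sided. Benjamini-Hochberg adjustment covered all genes of a comparison, for 6 comparisons, at a threshold of 0.05. The procedure was tested on simulated data, with noise drawn independently for each library. Of 100 changes of 0.5 planted there on the log2 scale, 41%, 45% and 51% were recovered with PD325901, RAD001 and GDC0941 against DMSO. For 100 changes of 1 it was 91%, 91% and 93%. All other genes were left unchanged there, whereas 46.6%, 31.3% and 24.3% of genes were called in the data. The adjusted threshold was therefore stricter in the simulation, and these shares are not those to be had in the data. Each gene had the same simulated spread in all groups, so the shares do not rank the inhibitors. Changes near 0.5 that did not pass may still have been missed. SD values are of FPKM within a group. Read depth was unknown, so no counting precision could be given.

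The 5 genes, the 5 pathway lists and the 8 marker lists were chosen with earlier results of these data known. Beside the 5 genes, the text names up to 3 genes of each pathway list with the smallest adjusted p under 0.05 for each inhibitor against DMSO, a set of direct partners, the 3 nearest patterns of each gene, and the 3 most abundant markers of a list. Pf4, Cpa3, Emcn, Lyz2, Elane, Mpo, Prtn3, Ctsg, Fut4 and the neighbours F5, Slc19a2 and Gm16548 of Selp were named after their values were seen.

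Same-numbered libraries deviated together in every pair (r over 0.1) for PD325901 and RAD001 against DMSO (lowest r = 0.183 and 0.201), PD325901 against RAD001 (0.149) and GDC0941 against RAD001 (0.309). The replicate number was therefore also fitted as a block. Other alternatives were the pseudocount, the filter, 2 scalings, a fit of 2 groups, no trend, library weights and leaving out libraries. In every group the lowest library weight was that of replicate 1 (0.381 DMSO, 0.406 PD325901, 0.248 RAD001 and 0.203 GDC0941). The other libraries had 0.386 to 6.02. Library weights and leaving out replicate 1 of every group thus both lessen the part of the same libraries. Promoter windows were read from RefSeq sequences, which matched 3 of the 5 genes by symbol. Results that concern 1 further gene are not reported here.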

Additional observations from a re-analysis of the deposited data

How the results depend on the processing

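The 5 genes in 6 comparisons gave 30 results and 510 values under alternatives. Of these 475 kept direction and side of the threshold, 17 lost the call, 12 gained it and 6 changed sign, and 18 of the 30 results kept both under every alternative run. The cause of each change below was not tested.

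With library weights, these passed: Cd44 with PD325901 (0.11) and RAD001 (0.16), Cxcr4 with RAD001 (0.46), Pecam1 between PD325901 and RAD001 (0.42), and Selp and Cd44 between GDC0941 and RAD001 (0.53 and 0.20). Without replicate 1 of every group, Cxcr4 with RAD001 (0.42), Pecam1 between PD325901 and RAD001 (0.43) and Selp and Cd44 between GDC0941 and RAD001 (0.59 and 0.20) passed.

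After quantile normalization, Selplg with RAD001 (0.088), Cd44 and Cxcr4 with GDC0941 (0.26 and 0.50), Cd44 between PD325901 and GDC0941 (-0.093) and Selplg between GDC0941 and RAD001 (-0.20) no longer passed. Cd44 changed sign with RAD001 (-0.0058) and between PD325901 and RAD001 (0.17, and 0.064 with median-ratio scaling). Calls were also lost for Cxcr4 with GDC0941 without a filter (0.54), for Cd44 between PD325901 and GDC0941 with median-ratio scaling (-0.13) and with only those 2 groups fitted (-0.22), and for Selplg between GDC0941 and RAD001 with only those 2 groups fitted (-0.28).

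Leaving out 1 library at a time gave 0.18 to 0.52 for Cxcr4 with RAD001 and 0.44 to 0.64 with GDC0941. Cd44 ranged from -0.058 to 0.021 between PD325901 and RAD001, from -0.26 to -0.17 between PD325901 and GDC0941 and from 0.16 to 0.25 between GDC0941 and RAD001. Its sign changed without PD325901 replicate 1 (0.0062) and RAD001 replicate 2 or 3 (0.021 and 0.0053).

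The number of genes called was 6923 with library weights and 4845 without replicate 1 of every group for RAD001 against DMSO (3224 as reported), and 3849 and 4321 for GDC0941 against DMSO (2503). Leaving out 1 library gave 2231 to 3259 and 1659 to 3140, the lowest of the latter without DMSO replicate 2. For GDC0941 against RAD001 (1798) the numbers were 3048, 3428 and, with 2 groups fitted, 701, and 959 and 973 without RAD001 replicate 2 or 3, in a range of 959 to 1985. With PD325901, 1893 genes rose and 2909 fell, or 2675 and 2455 after quantile normalization.

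Among partner genes that did not pass, signs changed for Ezr with PD325901 (0.055 without DMSO replicate 1, 0.013 without replicate 1 of every group, -0.15 to 0.055 with 1 library left out) and for Ptpn11 with PD325901 (0.0064 with median-ratio scaling). With GDC0941 they changed for Gcnt1 (-0.055 to 0.29 with 1 library left out), Cd38 (0.083 after quantile normalization, 0.029 with library weights, 0.17 without replicate 1 of every group, -0.30 to 0.058 with 1 library left out) and Ptpn11 (-0.026 without replicate 1 of every group, -0.020 to 0.12 with 1 library left out).

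The replicate block changed no call of the 5 genes, and the number of genes called with the block was 5241, 3712 and 2956 for PD325901, RAD001 and GDC0941 against DMSO. For GDC0941 against DMSO and PD325901 against GDC0941 not every same-numbered pair deviated together. For replicates 1, 2 and 3, r was 0.303, 0.0983 and 0.0354 in the former and 0.233, 0.261 and -0.139 in the latter. Read depth was unknown, so no limit on low levels from counting could be set.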
